A study of Mus musculus with 14 samples.

Results

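The 10 genes described here are the ETS transcription factors Ets1, Ets2, Etv1, Etv4, Etv5 and Elk3 and the Sprouty family genes Spry1, Spry2, Spry4 and Spred1. They were taken by symbol from 43472 gene rows in each of 2 normalised count tables. All 10 were found in both tables, and all 10 had the mean of at least 10 normalised counts that a gene needed to be tested. Primary fibroblasts from the tail tips of C57BL/6 mice were grown as a monolayer and scratched with a pipette tip, so all groups share the culture and the wound. The AMG-treated cells then received autologous micrograft (AMG), the filtered soluble part of a mechanically disrupted mouse skin biopsy diluted 1 to 10 in growth medium, and the Untreated cells did not. Replicate 1 holds 1 library of each group at 1, 5, 12 and 24 h, and replicates 2, 3 and 4 hold 1 library of each group at 5 h, which gives 14 libraries. The study calls the fibroblasts adult, and no age in weeks is given in the sources used here. No label says whether the numbered replicates came from separate mice or cultures, so the p-values measure only the spread between these libraries.

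ETS proteins bind DNA at a GGAA core through a shared domain, and several of them are phosphorylated by ERK, the kinase at the end of the Ras pathway that growth factor receptors switch on. Sprouty and Spred proteins act against the same pathway between the receptor and ERK, and their genes are commonly transcribed when ERK is active, which makes them feedback brakes. In fibroblasts, growth factor signalling through ERK accompanies migration and division during wound repair.

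The recovered depth ran from 12545537 to 34696529 reads per library, and a floor of 3 reads corresponded to 2.20 to 5.22 normalised counts in the replicate 1 table and to 1.62 to 4.18 in the other. The fibroblast label was checked against marker lists for 6 cell types. Col1a1, which encodes the alpha 1 chain of type I collagen, lay between 130390 and 278572 normalised counts in replicates 2 to 4. The 10 fibroblast markers summed to between 479904 and 643837 untreated and between 360187 and 466402 treated. Of these markers, 0 were called by limma and 7 were called lower with the block of replicate numbers described below. The keratin genes Krt5, Krt14 and Krt1 had 0 reads in all 6 of these libraries, and so did Emcn and Cldn5 of endothelium and Myh1, Myh4, Myod1 and Pax7 of muscle. The summed leukocyte markers ranged from 237 to 1435 normalised counts untreated and from 509 to 1760 treated, with the highest sums in replicate 4, where Lyz2 was at 978 and 916. Cd14, also listed as a leukocyte marker, was at 133 ± 52.7 untreated and 504 ± 175 treated (SD, n = 3), with an adjusted p of 0.0740 by limma and of 3.17e-05 with the replicate number as a block, and was the 1 leukocyte marker called with the block. The other sums, untreated and then treated, were 60.5 to 305 and 70.0 to 183 for endothelial markers, 156 to 310 and 92.6 to 149 for keratinocyte markers and 21.1 to 37.6 and 31.2 to 39.4 for Schwann cell markers. Muscle markers, nearly all Acta1, summed to 2907 to 7295 untreated and 1751 to 5503 treated. Some keratinocyte markers had reads, with means of 180 untreated and 73.6 treated for Dsp and of 29.1 and 39.0 for Krt10. With the block, 2 keratinocyte markers (Dsp and Trp63), 1 endothelial marker (Tek) and 1 muscle marker (Acta1) were called lower. The block called 19.3% of all genes lower, and limma without it called 0 markers of these lists. Ribosomal protein genes took 7.00% of the reads of the Untreated 5 h library of replicate 1 and 5.10% of the AMG-treated 1 h library, against 2.27% to 3.47% in the other 12 libraries. The part of these markers and shares in the results below was not tested. In a bulk sample, fewer cells of a type and less RNA per cell cannot be told apart.

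At 5 h, Ets1 was the member that rose past the test, 2.68-fold on average, while Spry2, Spry4, Ets2 and Elk3 were higher in every treated library than in any untreated one. Etv1 and Etv5 were lower in every treated library than in any untreated one, and Spry1 was lower within each of the 3 replicates. Etv4 and Spred1 showed no common direction. With limma on the log2(normalised count + 1) scale and a Benjamini-Hochberg adjusted p under 0.05 as the threshold, 1 of 10 members was called higher and 0 were called lower. Over all 13096 genes tested, 0.97% were called higher and 0.267% lower by this test. At an unadjusted p under 0.05, 6 of 10 members passed, against 23.1% of all genes. On the recovered reads, edgeR called 1 member higher and 0 lower, against 0.817% and 0.214% of all genes, and DESeq2 called 4 higher and 0 lower, against 6.6% and 4.44%. Treated and untreated libraries of the same number deviated together from their group means, and with the block 5 members were called higher (Ets1, Ets2, Elk3, Spry2 and Spry4) and 2 lower (Etv5 and Spry1). The block called 17.9% of all genes higher and 19.3% lower. The treated and untreated values did not overlap for 7 of the 10 members, against 28.7% of all genes.

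**Figure D1:**
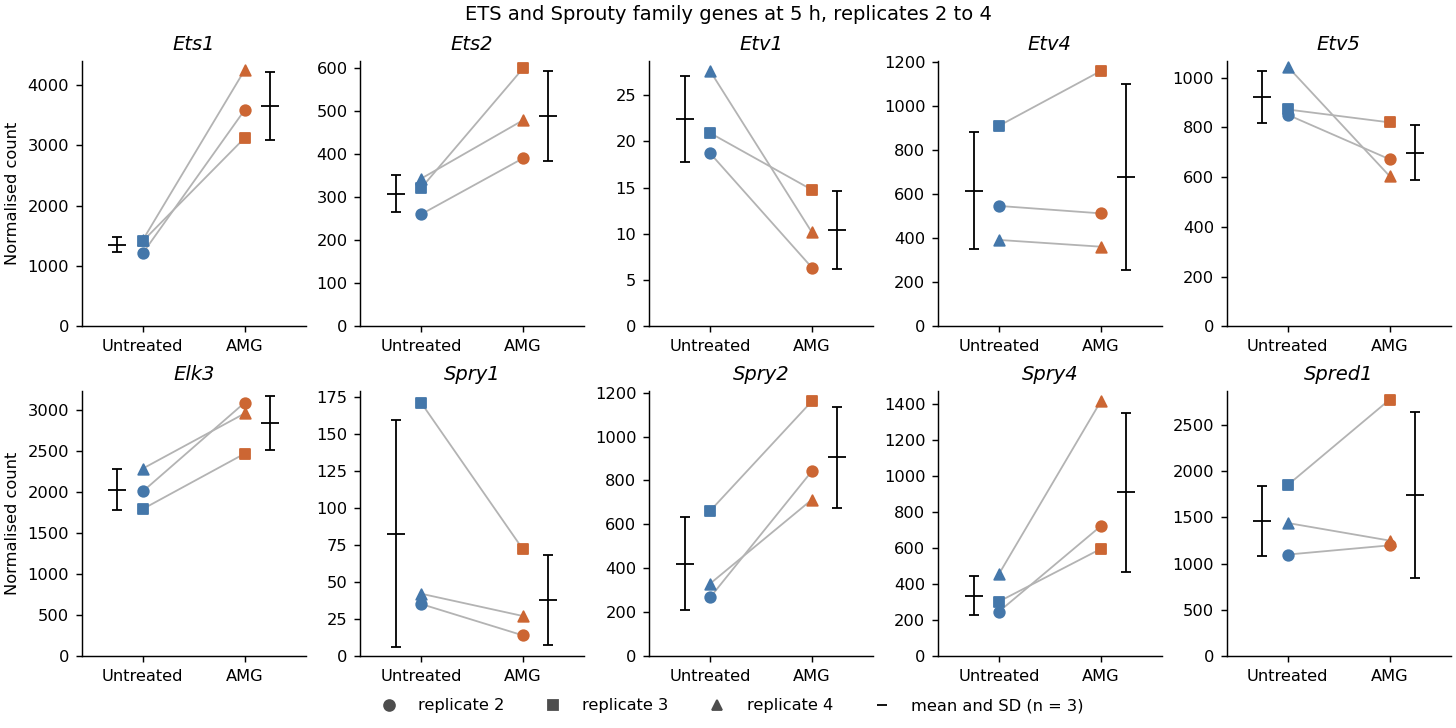
Normalised counts of the 10 members at 5 h on linear axes from 0, with Untreated libraries in blue and AMG-treated libraries in orange. Symbols mark replicates 2, 3 and 4, grey lines join libraries of the same number, and the black bars are the mean and SD (n = 3). The groups are apart for 7 genes and overlap for Etv4, Spry1 and Spred1, where replicate 3 lies highest in both groups.

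Ets1 (chr9:32636221-32757820, plus strand, mm10) encodes the founding ETS factor, known for roles in vessel growth and in the expression of matrix-degrading enzymes. Its untreated values at 5 h were 1213, 1413 and 1432 normalised counts in replicates 2, 3 and 4, and its treated values were 3581, 3119 and 4241. The lowest treated library lay above the highest untreated one by more than the whole range of either group. The means were 1353 ± 121 and 3647 ± 564 (SD, n = 3), which is a difference of 1.42 on the log2 scale (SE 0.15, 95% interval 1.07 to 1.78) with an adjusted p of 0.0190 by limma. On a scale of normalised counts per kilobase of the longest transcript, Ets1 went from 266 ± 23.8 untreated to 718 ± 111 treated (SD, n = 3). The call was lost when 1 library was left out in 4 of 6 cases, namely without the untreated or the treated library of replicate 2 or of replicate 4, where the adjusted p reached 0.123.

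Ets2 (chr16:95702075-95721051, plus strand), the close relative of Ets1 and itself a target of ERK phosphorylation, had untreated values of 261, 322 and 343 normalised counts and treated values of 391, 599 and 479. The groups did not overlap, but the gap between them was small beside the spread of the treated libraries. Ets2 had a log2 fold change of 0.65 (SE 0.21), with an adjusted p of 0.142 by limma and of 0.00587 with the replicate block.

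Elk3 (chr10:93247414-93311135, minus strand), a ternary complex factor that binds DNA with the serum response factor, had untreated values of 2006, 1792 and 2285 normalised counts and treated values of 3087, 2466 and 2956. Each treated library exceeded each untreated one. Its log2 fold change of 0.48 (SE 0.15) had an adjusted p of 0.128 by limma and of 0.00423 with the block, a call that was lost without replicate 2 (adjusted p = 0.0656). Elk3 shares 316 exon bases with Cdk17 on the other strand, and the strand setting of the counting was not stated, so reads of the pair may be mixed.

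The PEA3 group, Etv1, Etv4 and Etv5, are the ETS factors most often used as readouts of FGF and ERK activity, and 0 of these 3 members was called in either direction by limma, edgeR or DESeq2 without the block, with Etv5 alone under an unadjusted p of 0.05 in limma. Etv1 (chr12:38779380-38870484, plus strand) had untreated values of 18.7, 20.9 and 27.6 normalised counts and treated values of 6.36, 14.8 and 10.2. All treated values were below all untreated ones at a low level, with the lowest treated value within a few reads of the floor. For Etv1 the log2 fold change was -1.08 (SE 0.48), with an adjusted p of 0.232 by limma and of 0.0694 with the block.

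Etv5 (chr16:22381309-22439719, minus strand) had untreated values of 850, 872 and 1043 normalised counts and treated values of 672, 820 and 604. The groups were separate, and replicate 4 showed the largest gap. Its log2 fold change of -0.40 (SE 0.16) had an adjusted p of 0.202 by limma and of 0.0431 with the block, a call that was lost without replicate 2 (adjusted p = 0.147) or replicate 4 (adjusted p = 0.419).

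Etv4 (chr11:101769742-101785371, minus strand) had untreated values of 548, 912 and 393 normalised counts and treated values of 514, 1161 and 363. The order of the replicates was the same in both groups, with replicate 3 highest, and the difference between replicates was far greater than that between treatments. The log2 fold change was 0.05 with a 95% interval of -1.08 to 1.18, and of -0.24 to 0.33 with the block, so that a change of 2-fold in either direction lay outside the blocked interval. This estimate turned negative in several alternatives, among them the length correction, where it was -0.03.

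Spry2 (chr14:105891947-105896819, minus strand), an intracellular inhibitor of receptor tyrosine kinase signalling, had untreated values of 267, 661 and 330 normalised counts and treated values of 842, 1161 and 713. The groups were separate although replicate 3 was highest in both. Spry2 had a log2 fold change of 1.19 (SE 0.36), with an adjusted p of 0.127 by limma and of 0.000789 with the block. Spry4, on chromosome 18, the second inhibitor of the family that went in this direction, had untreated values of 247, 304 and 457 normalised counts and treated values of 723, 596 and 1416. Replicate 4 was highest in both groups, and the lowest treated value was above the highest untreated one. The log2 fold change of 1.38 (SE 0.37) was close in size to that of Ets1, but its adjusted p was 0.109 by limma, against 0.000236 with the block.

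Spry1 (chr3:37639947-37644598, plus strand) went the other way. Its untreated values were 35.2, 171 and 42.2 normalised counts, and its treated values were 14.0, 72.1 and 27.1. Within each replicate the treated library was the lower one, but the groups overlapped because replicate 3 held several times more Spry1 than the others in both. The log2 fold change was -1.04 with a 95% interval of -2.90 to 0.82 and an adjusted p of 0.452 by limma, and with the block the interval was -1.67 to -0.42 and the adjusted p 0.0172. The unblocked estimate was -0.33 without the untreated library of replicate 3 and -1.65 without its treated one, and the call with the block was lost without replicate 2 (adjusted p = 0.0971) or replicate 3 (adjusted p = 0.0521). Spry1 shares 710 exon bases with the annotated transcript Gm42922 on the other strand, so its reads may hold some from that locus.

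Spred1 (chr2:117121374-117182279, plus strand), which recruits neurofibromin against Ras, had untreated values of 1099, 1852 and 1440 normalised counts and treated values of 1198, 2775 and 1250. Treated values were higher in replicates 2 and 3 and lower in replicate 4. The log2 fold change of 0.17 had a 95% interval of -0.68 to 1.01, and of -0.14 to 0.48 with the block, with adjusted p-values of 0.809 and 0.363 by limma. Its sign depended on the libraries used, since the estimate was -0.23 without the AMG-treated library of replicate 3.

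**Figure D2:**
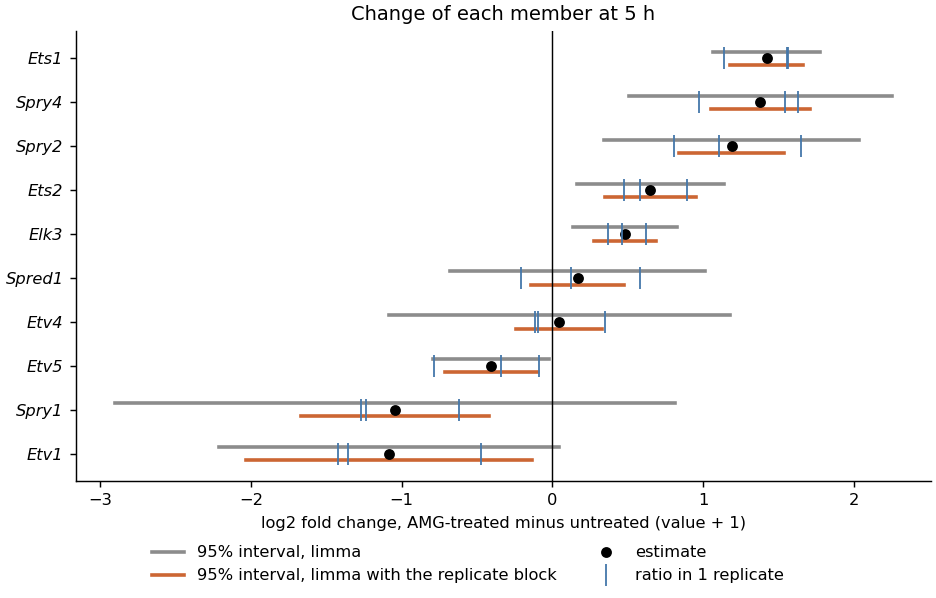
Log2 fold change of each member at 5 h, AMG-treated minus untreated, on the log2(value + 1) scale, in order of size. Black points are estimates, blue ticks the ratio within replicates 2, 3 and 4, and bars the 95% interval by limma without (grey) and with (orange) the replicate block. The grey intervals of Ets1, Spry4, Spry2, Ets2 and Elk3 lie above 0, that of Spry1 runs from -2.90 to 0.82, and the block shortens every interval.

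Replicate 3 differed from replicates 2 and 4 in both groups for several members. The range of the 3 replicate means on the log2 scale was 2.27 for Spry1 and 1.44 for Etv4, at the percentiles 95.8 and 89.2 of all tested genes, whose median range was 0.45. It was 0.24 for Ets1 and 0.16 for Etv5. In the same libraries Lum, a small proteoglycan of fibroblasts, was at 333 and 219 normalised counts in the untreated and treated libraries of replicate 3, against 1423 to 6374 in the other 4. Tek, an endothelial receptor gene, was at 226 and 110 in replicate 3 and at 17.6 or less elsewhere, while Emcn and Cldn5 were at 0. The part of this difference in the members' levels was not tested. Without replicate 3, the fit with the block called the same 5 members higher, and the 2 called lower were Etv1 and Etv5, with Spry1 no longer called. That fit rested on replicates 2 and 4 alone. The share of all genes that it called is not given here, so its count of members has no background beside it.

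Per kilobase of transcript, the order of the untreated levels at 5 h was Elk3, Ets1, Etv4, Spred1, Etv5, Spry2, Ets2, Spry4, Spry1 and Etv1. The level of Elk3 was 481 ± 58.6 normalised counts per kilobase and that of Etv1 3.40 ± 0.70 (SD, n = 3). Elk3 lay apart from Ets1, Spry2 from Ets2, and Spry1 from Etv1, whereas the libraries of all other neighbours overlapped, so that the order from Ets1 to Spry2 is not resolved. In the treated libraries Ets1 stood first at 718 ± 111, overlapping Elk3 at 673 ± 77.7, and Spry2 came next at 434 ± 111. Spry1 and Etv1 were again the lowest, at 13.6 ± 11.0 and 1.59 ± 0.64, and each lay apart from the member above it.

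The ratio of treated to untreated at 5 h can also be read in replicate 1, whose values come from a table scaled separately. For Ets1 the log2 ratio was 2.20 in replicate 1, beside 1.56, 1.14 and 1.57 in replicates 2, 3 and 4. Spry2 gave 1.66, 1.65, 0.81 and 1.11, and Spry4 gave 3.38, 1.54, 0.97 and 1.63. Each of these 3 genes was thus higher in 4 of 4 replicates, with Spry4 and Ets1 at their largest in replicate 1. Ets2 (0.95, 0.58, 0.90 and 0.48) and Elk3 (0.17, 0.62, 0.46 and 0.37) were also above 0 in 4 of 4, although the replicate 1 value of Elk3 was -0.033 after a correction for transcript length, while Etv1 (-0.78, -1.42, -0.47 and -1.36) and Spry1 (-0.93, -1.27, -1.24 and -0.62) were below 0 in 4 of 4. Spred1 stood apart in replicate 1 with 1.32, against 0.13, 0.58 and -0.20, and Etv5 was at 0.30 there and below 0 in the other 3. When the recovered reads of all 4 replicates were fitted together with the block in edgeR, 2 members passed, Ets1 (adjusted p = 0.0122) and Spry2 (adjusted p = 0.0214), against 3.72% of all genes in either direction.

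The time course of replicate 1 has 1 library per group and time, so its ratios carry no replicate check and no p-value, and the intervals given are 95% counting intervals that cover sampling of reads only. Ets1, Spry2 and Spry4 were already past a log2 ratio of 1 at 1 h, and no member was below -1, whereas 11.3% of all 13498 genes were above 1 and 10.7% below -1. At 5 h, 4 members were above 1 (Ets1, Spry2, Spry4 and Spred1) and 0 below -1, against 13.3% and 12.6% of all genes. At 12 h, 4 members were above 1 (Ets1, Ets2, Etv1 and Spry2) and 1 below -1 (Spry1), against 5.93% and 6.9%. At 24 h, 2 were above 1 (Ets2 and Etv1) and 1 below -1 (Spry1), against 6.05% and 8.05%. The median log2 ratio of the members was 0.04, 0.63, 0.92 and 0.68 at the 4 times, against -0.06, -0.01, -0.01 and 0.02 over all genes.

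**Figure D3:**
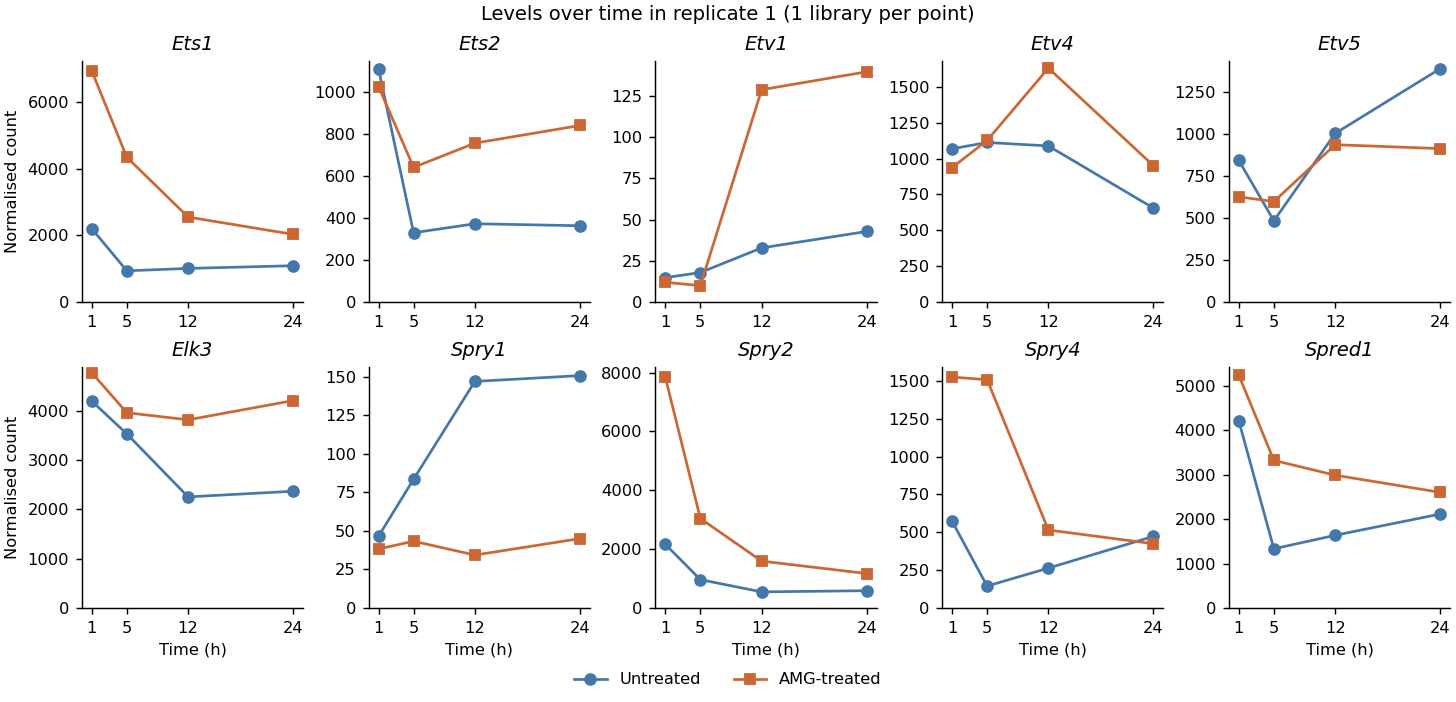
Normalised counts of the 10 members at 1, 5, 12 and 24 h in replicate 1, on linear axes from 0, with Untreated in blue and AMG-treated in orange and 1 library per point. Ets1, Spry2, Spry4, Spred1 and Elk3 are highest in the treated library at 1 h. Spry1 goes from 46.6 to 151 only in the untreated cells, and Etv1 goes from 10.1 at 5 h to 129 at 12 h in the treated cells.

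In the treated libraries, Ets1, Spry2, Spry4 and Spred1 were highest at 1 h and lower at each later time. Treated Ets2 and Elk3 were also highest at 1 h, and so were the untreated libraries of all of these genes. Treated Ets1 was at 6915, 4337, 2550 and 2032 normalised counts at 1, 5, 12 and 24 h, and untreated Ets1 at 2200, 942, 1014 and 1095. Treated Spry2 was at 7837, 3039, 1591 and 1168, and untreated Spry2 at 2162, 961, 544 and 584. Ets1 and Spry2 were above their untreated libraries at every time, with log2 ratios of 1.65, 2.20, 1.33 and 0.89 for Ets1 and of 1.86, 1.66, 1.55 and 1.00 for Spry2. After the correction for transcript length, the ratios at 1 and 5 h were 2.00 and 1.86 for Ets1 and 1.57 and 2.00 for Spry2. Which of these times had the higher ratio thus changed for both genes, so the time of the highest ratio is not settled.

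In replicate 1, treated and untreated Spry4 lay close together at 24 h. After 5 h, its treated level was lower and its untreated level higher at each time. Its treated values were 1525, 1508, 515 and 424 normalised counts, and its untreated values 572, 144, 263 and 472. The 5 h ratio of 3.38 (counting interval 3.08 to 3.71) was the largest of any member at any time and went with the lowest untreated value, in the library with the highest share of ribosomal protein reads. At 24 h the log2 ratio was -0.16 with a counting interval of -0.33 to 0.02.

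Spry1 differed most at late times. Its untreated values were 46.6, 83.6, 147 and 151 normalised counts at the 4 times, while its treated values stayed between 34.3 and 45.0. The 12 h ratio was -2.07 (counting interval -2.65 to -1.58, with 36 reads in the treated library) and the 24 h ratio -1.72 (-2.22 to -1.29). The gap went with the untreated cells, in which Spry1 was 3.19 times as high at 24 h as at 1 h.

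Spry1 and Spry2 are shown with the 250 bases before their start sites because they are members of 1 family that differed in opposite directions at 5 h. The sequences are from RefSeq on GRCm38.p6, 5′ to 3′ on the strand of the gene (Spry1 chr3:37639697-37639946, plus strand, and Spry2 chr14:105896820-105897069, minus strand). Capitals mark GGAA on either strand (TTCC on the other), the ETS core, which was added to the search after the data had been seen.
Spry1: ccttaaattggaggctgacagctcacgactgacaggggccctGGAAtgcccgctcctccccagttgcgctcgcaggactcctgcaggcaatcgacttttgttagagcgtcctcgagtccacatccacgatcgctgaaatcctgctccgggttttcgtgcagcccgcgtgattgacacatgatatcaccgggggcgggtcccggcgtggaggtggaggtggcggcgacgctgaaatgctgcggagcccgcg
Spry2: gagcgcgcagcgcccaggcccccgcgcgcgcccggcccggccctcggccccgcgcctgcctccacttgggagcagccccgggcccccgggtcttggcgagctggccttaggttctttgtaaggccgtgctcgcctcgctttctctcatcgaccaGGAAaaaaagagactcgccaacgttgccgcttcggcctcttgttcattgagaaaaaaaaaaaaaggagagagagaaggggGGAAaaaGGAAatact
The Spry1 window held 1 match and the Spry2 window 3, while the median over all 32851 promoters was 3 matches in 250 bases and 93.4% held at least 1, so the core is near universal at this length. Promoter windows of 300 bases were given for 7 members, 9 windows in all. No window was given for Ets1, Etv4 or Spry4, so these members were not searched. They were searched on both strands for an AP-1 site (TGANTCA), an extended ETS site (CCGGAAGT), a CArG box and a kappaB site, and 0 of 9 held any of them. The shares of all promoters that did were 7.81%, 3.89%, 1.63% and 4.51%.

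Etv1 was low in both groups at 1 and 5 h and higher in the treated library at 12 and 24 h. Treated Etv1 was at 12.2, 10.1, 129 and 140 normalised counts and untreated Etv1 at 14.9, 18.0, 32.9 and 42.9. The ratio was -0.78 at 5 h, from 11 untreated and 13 treated reads, so its counting interval of -2.12 to 0.46 spans 0. At 12 and 24 h it was 1.93 (1.47 to 2.49) and 1.68 (1.25 to 2.17), and the treated level was 10.7 times as high at 24 h as at 1 h.

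The ratio of Ets2 also differed with time, since after 1 h its untreated level was lower by more than its treated level. Untreated Ets2 was at 1109, 331, 374 and 365 normalised counts, and treated Ets2 at 1026, 642, 758 and 842. The 1 h ratio was -0.11 with a counting interval of -0.26 to 0.03, and the later ratios were 0.95, 1.02 and 1.2. Elk3 also had its higher ratios late, with values of 0.19, 0.17, 0.76 and 0.83.

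Etv4 and Etv5 stayed within 1 of 0 on the log2 scale at each time. Etv4 had ratios of -0.19, 0.02, 0.58 and 0.54, and Etv5 of -0.43, 0.30, -0.10 and -0.60. Spred1 had ratios of 0.32, 1.32, 0.87 and 0.30. Treated Spred1 was at 5244, 3326, 2992 and 2606 normalised counts and untreated Spred1 at 4212, 1333, 1637 and 2116. The 5 h ratio of Spred1 was 0.85 after a correction for transcript length, which took it below 1, and that of Etv1 was -1.31, which took it below -1, so that 3 members were above 1 and 1 below -1 at 5 h on that scale. The counts above 1 and below -1 at the other 3 times were the same with the correction.

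**Figure D4:**
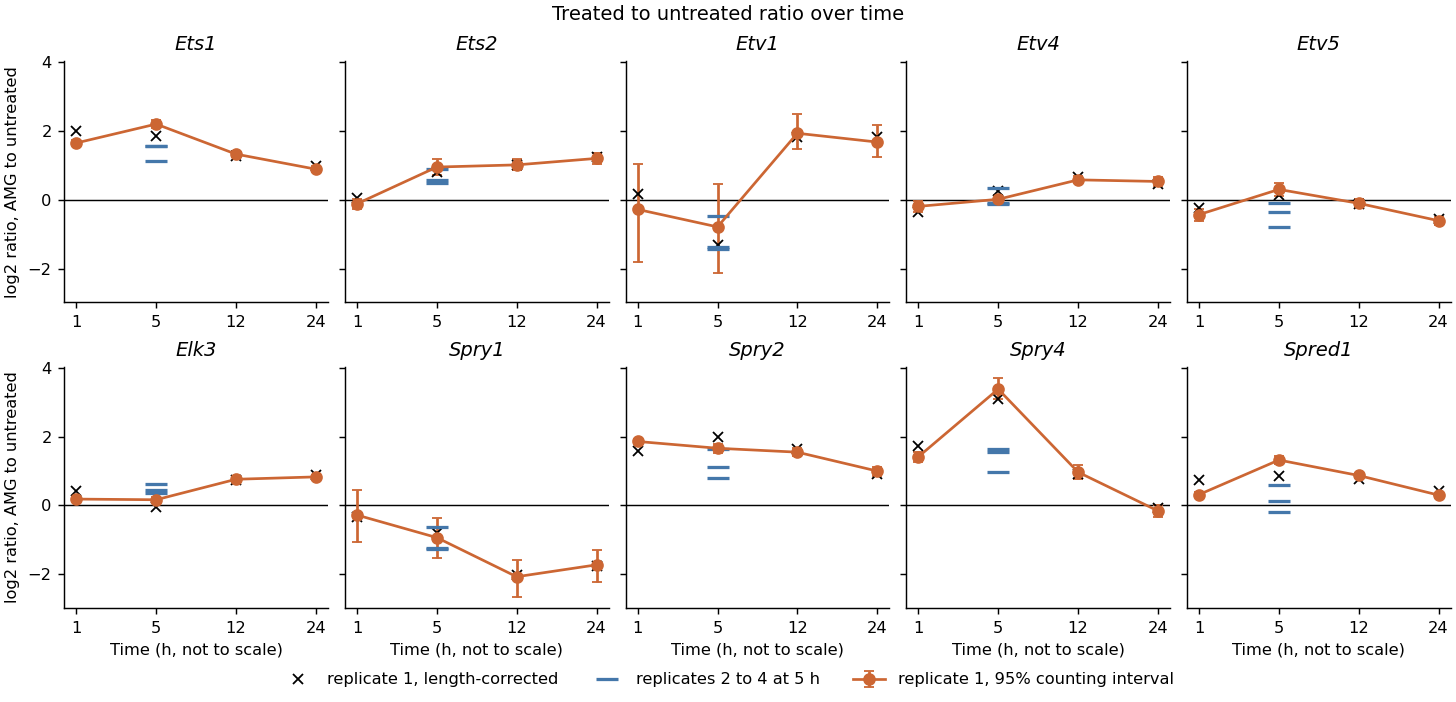
Log2 ratio of AMG-treated to untreated for the 10 members at 1, 5, 12 and 24 h. Orange points are replicate 1 with 95% counting intervals, black crosses the same values after correction for transcript length, and blue dashes replicates 2 to 4 at 5 h. Spry4 goes from 3.38 at 5 h to -0.16 at 24 h, Spry1 reaches -2.07 at 12 h, and Etv1 crosses from -0.78 to 1.93 between 5 and 12 h.

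The genes whose log2 levels followed Ets1 most closely over the 8 replicate 1 libraries, out of 12834 searched, were Nfkb1 (Pearson r = 0.978), Tnfaip2 (r = 0.978) and Ptpn12 (r = 0.975). These libraries share 1 replicate number and 1 scaling, so the coefficients are a description. Nfkb1, a subunit of NF-kappaB, passed at 5 h in replicates 2 to 4, with a change of 1.82 on the log2 scale (SE 0.23) and an adjusted p of 0.0211 by limma. Tnfaip2 and Ptpn12, a tyrosine phosphatase, had log2 fold changes of 1.53 and 0.58 and adjusted p-values of 0.11 and 0.0807 by limma.

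Around the members, 82 genes were listed in 5 groups that cover the ERK pathway, genes commonly induced through it and other ETS factors. They were read in the same 5 h test, where the median log2 fold change of all genes was -0.02. Of all genes, limma called 0.97% higher and 0.267% lower, and limma with the block called 17.9% and 19.3%. Of 16 receptors and adaptors, 4 had a log2 fold change above 0 and 12 below, and limma called 0 higher and 1 lower. This was Fgfr2, an FGF receptor, at 840 ± 312 untreated and 169 ± 37.0 treated normalised counts (SD, n = 3), which is a difference of -2.25 on the log2 scale (SE 0.34) with an adjusted p of 0.0402 by limma. The median of the group was -0.29, and with the block 2 were called higher and 7 lower. Of 17 genes from Ras to ERK and its downstream kinases, 0 passed in either direction by limma or edgeR. At an unadjusted p under 0.05 by limma, 2 were lower, where 23.1% of all genes passed in either direction. DESeq2 called 1 lower, against 4.44% of all genes. The median was 0.01, and the block called 3 higher and 4 lower.

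Of 17 other brakes on ERK signalling, 12 had a log2 fold change above 0 and 5 below, with a median of 0.21. Of these, limma called 3 higher and 0 lower. They were Dusp5, a nuclear phosphatase of ERK, with a log2 fold change of 2.13 (SE 0.33), Errfi1, which inhibits the EGF receptor, with 2.44 (SE 0.39), and Lrig1, which lowers receptor levels, with 2.19 (SE 0.34). Their adjusted p-values were 0.0414, 0.0438 and 0.0414 by limma. Dusp6, the cytoplasmic ERK phosphatase often read beside Spry2 and Spry4, went from 1044 ± 167 to 1828 ± 570 (SD, n = 3) with an adjusted p of 0.160, and of 0.00309 with the block. The block called 7 of these brakes higher and 2 lower, against 17.9% and 19.3% of all genes.

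Of 12 other genes commonly induced through ERK, 9 had a log2 fold change above 0 and 3 below, with a median of 0.93. In this group limma called 5 higher and 0 lower. The AP-1 subunit gene Fosl1 rose by 1.37 on the log2 scale (SE 0.14) and Myc, a growth regulator, by 0.78 (SE 0.11), with adjusted p-values of 0.0190 and 0.0375. Phlda1, Ier3 and the cytokine gene Lif had log2 fold changes of 1.69, 3.32 and 6.69. Lif went from 145 ± 30.1 to 16960 ± 9204 normalised counts (SD, n = 3). With the block 8 of the 12 were called higher and 1 lower, against 17.9% and 19.3% of all genes. Without the block and with 1 library left out, between 0 and 7 of the output genes and between 0 and 5 of the brakes were called higher. The highest counts came without the AMG-treated library of replicate 3, and the lowest for the output genes without that of replicate 2. The shares of all genes called in these fits are not given here, so these counts have no background beside them.

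Of 20 other ETS factor genes, 10 had the level needed for the test, 6 had at most 3 reads in each of the 6 libraries, and 0 of the 10 passed in either direction by limma, edgeR or DESeq2 without the block. At an unadjusted p under 0.05, 2 were higher and 5 lower, where 23.1% of all genes passed in either direction. Their median log2 fold change was -0.34. With the block, Elk4 and Etv3 were called higher and Elk1, Etv6, Erf, Gabpa and Elf1 lower, against 17.9% and 19.3% of all genes.

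**Figure D5:**
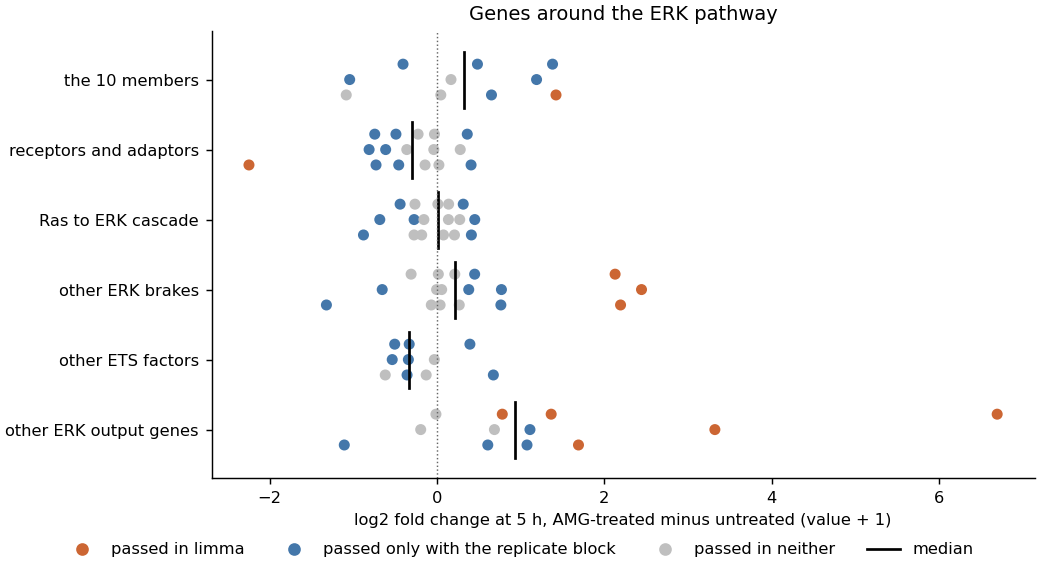
Log2 fold change at 5 h (AMG-treated minus untreated, value + 1) of the tested genes of each group, 1 point per gene and a black line at each median. Orange points passed in limma, blue points passed only with the replicate block, and grey points passed in neither. Orange points lie to the right for the brakes and the output genes, where Lif is at 6.69, and Fgfr2 at -2.25 is the orange point to the left.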

How the data were processed

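Poly(A) RNA of 14 libraries was prepared with a stranded kit and sequenced. Per the labels, reads were checked with FastQC 0.11.5, aligned to mm10 with TopHat2 2.0.13, handled with SAMtools 0.1.19.24 and counted with HTSeq 0.5.3p3; which annotation was counted, and whether by strand, is not given in the sources used here. The deposited values are a signal, read counts that the authors divided by size factors of DESeq, in separate tables for replicate 1 (8 libraries) and replicates 2 to 4 (6 libraries), so levels were not compared between tables. Values were whole multiples of 1 step, and 100% came out as whole reads within 0.1. Reads carry no molecular identifiers, so floors and intervals cover counting error only.

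The main test was limma 3.58.1 in R 4.3.3 (lmFit, eBayes with a trend) on log2(normalised count + 1), 3 treated against 3 untreated libraries at 5 h, on 13096 genes with a mean of at least 10 normalised counts, two-sided, with Benjamini-Hochberg adjustment over all of them. Such fold changes understate the change of genes with low counts. Paired fits added the replicate number. Deviations from the group means correlated at 0.65, 0.76 and 0.70 between libraries of the same number and at -0.59 to 0.12 between others, over all genes tested, so the numbers were taken as pairs. Alternatives were the whole reads in edgeR 4.0.16 and in DESeq2 1.42.0, pseudocounts of 0.1 and 10, no filter and a stricter mean of 50, a correction for transcript length (loess, span 0.5), and leaving out each library or pair. The fits were tested on simulated data. At 1 library per group, members past a log2 ratio of 1 were counted.

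Members and lists were chosen with earlier results of these data known. Named were all members, the listed pathway genes that passed at 5 h, and the 3 genes most correlated with each member that passed. Dusp6, the marker genes singled out by name and the genes named with the block were added after their values were seen. Places are from GENCODE on GRCm38, and promoters from RefSeq.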

Additional observations from a re-analysis of the deposited data

Results flagged for a closer look

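In 4 cases the treated to untreated ratio of a member in replicate 1 lay on the other side of 0 from its ratio in 4 of 4 replicates at 5 h. None of these differences was tested, since each of the other times has 1 library per group. The log2 ratio of Ets2 was -0.11 at 1 h, and 0.067 after correction for transcript length, while at 5 h it was above 0 in each replicate. Etv1 was at 1.93 at 12 h and 1.68 at 24 h and below 0 in each replicate at 5 h, where its levels were low. Spry4 was at -0.16 at 24 h and above 0 in each replicate at 5 h. Among the 10 sets of 4 ratios at 5 h, 0 had a replicate far enough from the others to be set apart by Dixon's test.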

How the results depend on the processing

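The number of members called higher at 5 h was 1 in the main fit. It was 5 with the replicate block in limma, edgeR or DESeq2, 4 in DESeq2 without it, 2 in edgeR on 4 replicates with the block, and 6 with the length correction and the block. It was 0 to 5 when libraries or pairs were left out, with 0 without the untreated or treated library of replicate 2 or 4, 3 without the AMG-treated library of replicate 3, and 4 to 5 with the block. The number called lower was 0, and 2 with the block in limma, edgeR or DESeq2, 1 with the length correction and the block, and 0 to 2 when libraries or pairs were left out. Over all genes, limma called 0.97% higher and 0.267% lower, and with the block 17.9% and 19.3%. DESeq2 without the block called 6.6% and 4.44%, and edgeR on 4 replicates 3.72% in either direction. For the other settings no share over all genes is given here, so those counts have no background beside them. Why the counts of members differ was not tested. Beyond the values beside each member, the block changed no other call of a member.

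Etv4 and Spred1, called in none of these fits except Spred1 with the length correction and the block, changed sign. Etv4 was at -0.033 on the log2 scale with the length correction, with or without the block, at -0.43 without the AMG-treated library of replicate 3, at -0.24 without the untreated library of replicate 4, and at -0.10 with the block without replicate 3, over a range of -0.43 to 0.41 when libraries were left out. Spred1 was at -0.02 without the untreated library of replicate 2, at -0.23 without the AMG-treated library of replicate 3, and at -0.039 with the block without replicate 3, over a range of -0.23 to 0.38. The cause was not tested. The direction of the other 8 members was the same in every alternative fit at 5 h. Among the single ratios of replicate 1, the length correction changed the sign for 3 of these 8. Elk3 at 5 h went from 0.17 to -0.033, Ets2 at 1 h from -0.11 to 0.067 and Etv1 at 1 h from -0.28 to 0.18.

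In replicate 1 the counts past a log2 ratio of 1, both directions added, stayed within 1.5 times of the main count in each alternative. At 5 h the count below -1 went from 0 to 1 with upper quartile rescaling (Spry1 at -1.01) and with the length correction (Etv1 at -1.31). The length correction moved 15 of 40 ratios beyond their counting interval. Of the 9 listed pathway genes called at 5 h, Lif lost its call in 1 of 23 alternatives and the others in 4 to 6, chiefly when 1 library was left out. Depth limits Etv1 and Spry1, whose replicate 1 libraries held as few as 7 and 22 reads.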
